A study of Homo sapiens with 12 samples.

Results

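The sirtuins are a family of NAD-dependent enzymes that take acetyl and longer acyl groups off lysines or transfer ADP-ribose. The 7 human genes, SIRT1 to SIRT7, were found by symbol among the 58735 genes of a count table, and all 7 passed the filter on low counts. The table comes from RNA sequencing of 12 libraries of Ovcar8, an established human ovarian cancer cell line, in 4 groups of 3. The series title names carnitine synthesis, alpha-ketoglutarate, histone acetylation and homologous recombination.

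The shTMLHE 1 and shTMLHE 2 cells overexpressed CCNE1, the gene of cyclin E1, and also carried 1 of 2 short hairpin RNAs against TMLHE, which encodes the first enzyme of carnitine synthesis. CCNE1 cells overexpressed CCNE1 and are labelled with no hairpin. Control cells are titled control, and their sample descriptions carry the letters EV, which the titles do not spell out. All 4 groups were grown in RPMI-1640 with 5% fetal bovine serum, transduced with lentivirus and kept in 3 µg/ml puromycin for 2 to 3 days. No group is labelled as carrying a hairpin against another gene, or a TMLHE hairpin without CCNE1. Nothing in the labels tells whether replicates came from separate cultures. The p-values therefore set differences between groups only against the spread of these libraries, and that spread may be technical.

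Sirtuins consume NAD as they remove acyl groups, and nicotinamide, a product, inhibits the reaction. SIRT1, SIRT6 and SIRT7 are mainly nuclear, SIRT2 mainly cytosolic, and SIRT3, SIRT4 and SIRT5 mitochondrial. The nuclear members deacetylate histones and repair proteins, while SIRT3 is the chief deacetylase of the mitochondrial matrix and SIRT5 removes succinyl, malonyl and glutaryl groups. In ovarian and other cancers the family has been studied both as a brake on growth and as a support of genome stability.

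The libraries held 14.1 to 21.5 M (mega) counts, of which 2140 to 3888 per library fell on the 7 sirtuins. The targeted genes followed the labels: CCNE1 had 20133 to 24030 counts in shTMLHE 1, 15302 to 20930 in shTMLHE 2, 13749 to 18444 in CCNE1 and 382 to 480 in control libraries, and TMLHE had 6 to 21 counts in the hairpin libraries against 177 to 293 in the others. The keratins KRT7, KRT8 and KRT18, PAX8 and MSLN were well counted, while EPCAM was low, WT1 and SOX17 had at most 12 and 5 counts, and MUC16 and MECOM were listed at 0, so not all markers of serous ovarian cells were present. The 5 fibroblast markers summed to 1719 to 1820 counts per M total counts in shTMLHE 1, 1533 to 1590 in shTMLHE 2, 518 to 542 in CCNE1 and 777 to 831 in control libraries. COL1A1 and PDGFRB made up that sum, DCN was listed at 0, and LUM and COL1A2 had at most 9 and 4 counts. The leukocyte and endothelial lists summed to at most 2.99 and 4.05 on that scale. The part of these markers in the sirtuin values was not tested. Levels are otherwise in CPM, counts per M counts of the library as scaled by TMM, which sets the bulk of genes level between libraries.

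Fold changes of all tested genes followed the GC content of the transcript, and the sirtuins lie far apart on that scale, from 40.5% in SIRT1 to 64.9% in SIRT6. Spearman's rho between log2 fold change and GC content across 15373 genes was -0.37 for shTMLHE 1 against CCNE1, -0.64 for shTMLHE 2 against CCNE1 and -0.38 for CCNE1 against control, genes not being independent replicates. Fold changes of sirtuins are therefore given as fitted and, for most, again after each library's trend on GC content and transcript length was removed, and a change of the gene itself and a shift shared by genes of its composition cannot be told apart from these libraries alone.

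Start sites of 6 of the 7 sirtuins were in a RefSeq table of 35116 promoter windows on GRCh38.p14, each with 250 bases before and 50 after the start. Windows of 3 genes are shown, written 5′ to 3′ on the strand of the gene, because these genes differed most in the motifs found and stand for the member that was higher with CCNE1 and shTMLHE 2 (SIRT1), one with a close divergent neighbour (SIRT3) and the most abundant one (SIRT6). Capitals mark every match to the E-box CACGTG, the GC box GGGCGG, the ETS core CCGGAAG and the E2F motifs TTTGGCGC and TTTCCCGC, on either strand.
SIRT1 promoter, chr10:67884406-67884705, plus strand: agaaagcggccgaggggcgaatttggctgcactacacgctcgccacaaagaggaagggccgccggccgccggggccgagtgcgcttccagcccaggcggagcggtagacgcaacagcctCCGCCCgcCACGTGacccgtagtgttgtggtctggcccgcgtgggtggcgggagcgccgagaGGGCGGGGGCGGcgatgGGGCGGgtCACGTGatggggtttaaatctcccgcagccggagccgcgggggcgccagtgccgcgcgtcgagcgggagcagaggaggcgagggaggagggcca
SIRT3 promoter, chr11:236882-237181, minus strand: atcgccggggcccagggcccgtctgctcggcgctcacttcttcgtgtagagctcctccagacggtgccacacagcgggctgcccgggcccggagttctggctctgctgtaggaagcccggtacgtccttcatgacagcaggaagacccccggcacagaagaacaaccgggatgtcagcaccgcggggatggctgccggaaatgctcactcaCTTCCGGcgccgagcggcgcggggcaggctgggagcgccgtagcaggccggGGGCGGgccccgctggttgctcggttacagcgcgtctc
SIRT6 promoter, chr19:4182514-4182813, minus strand: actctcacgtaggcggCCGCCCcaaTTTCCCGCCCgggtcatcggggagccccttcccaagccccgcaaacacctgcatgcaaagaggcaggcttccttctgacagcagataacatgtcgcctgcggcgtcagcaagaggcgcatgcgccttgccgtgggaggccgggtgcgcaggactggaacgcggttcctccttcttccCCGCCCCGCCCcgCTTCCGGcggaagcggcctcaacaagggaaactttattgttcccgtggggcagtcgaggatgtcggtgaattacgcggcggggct
The SIRT1 window held 2 E-boxes, 123 and 44 bases before the start, and 4 GC boxes. E-boxes were found in 7.26% of all windows and GC boxes in 45%. The SIRT3 window held 1 ETS core, a motif found in 10.3% of windows, and 1 GC box. The table has 2 SIRT6 windows, and the one that lies nearer the gene body held 1 GC box and none of the other motifs. The SIRT6 window shown held 4 GC boxes, 1 ETS core and 1 E2F motif, which lay 225 bases before the start, overlapped a GC box, and is found in 2.27% of windows. Neither the SIRT2 window nor the 2 SIRT4 windows held any of the 4 motifs, and each of the 2 SIRT5 windows held GC boxes only. These matches describe letters, and binding was not measured.

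Per kilobase of exon, SIRT6 was the most abundant sirtuin mRNA in every group, with 15.4 ± 0.458 RPKM in shTMLHE 1, 10.4 ± 0.572 in shTMLHE 2, 25.5 ± 1.00 in CCNE1 and 18.1 ± 0.414 in control cells (SD, n = 3). RPKM is the count per kilobase of the gene's exons and per M counts of the TMM-scaled library, and levels are compared between genes on this scale only. SIRT2 came next in 3 groups, at 7.24 ± 0.107 RPKM in shTMLHE 1, 11.4 ± 0.220 in CCNE1 and 10.8 ± 0.780 in control cells. In shTMLHE 2 cells SIRT1 was above it, at 5.83 ± 0.203 RPKM against 3.77 ± 0.198 for SIRT2, with no overlap between libraries.

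The order of the other members differed between groups. SIRT1 was the lowest member in control cells, at 1.42 ± 0.371 RPKM, below every library of the other 6. In CCNE1 cells it stood at 2.81 ± 0.402 RPKM, where SIRT1, SIRT3, SIRT5 and SIRT4 followed each other with overlapping libraries down to 2.06 ± 0.337. In shTMLHE 1 cells SIRT7 and SIRT1 overlapped at 3.92 ± 0.411 and 3.47 ± 0.415 RPKM. The 3 mitochondrial members lay lowest in both hairpin groups, between means of 1.79 and 2.29 RPKM in shTMLHE 1 and between 1.59 and 1.81 in shTMLHE 2, and overlapped each other.

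Summed over the 7 genes, sirtuin mRNA came to 36.0 ± 0.885 RPKM in shTMLHE 1, 27.8 ± 0.969 in shTMLHE 2, 50.9 ± 0.845 in CCNE1 and 46.3 ± 0.878 in control cells, with no overlap between groups on this TMM scale. SIRT1 made up 9.62% of that sum in shTMLHE 1, 21.0% in shTMLHE 2, 5.53% in CCNE1 and 3.06% in control cells. SIRT6 made up 42.8% in shTMLHE 1, 37.5% in shTMLHE 2, 50.1% in CCNE1 and 39.0% in control cells. The make-up of the libraries moved with the groups too: counts on ribosomal protein genes were 7.43% to 7.79% in shTMLHE 1, 7.77% to 7.90% in shTMLHE 2, 14.1% to 14.5% in CCNE1 and 12.5% to 13.1% in control libraries. Mitochondrial counts were 5.23% to 5.53% in shTMLHE 1, 2.87% to 2.99% in shTMLHE 2, 3.13% to 3.20% in CCNE1 and 4.06% to 4.32% in control libraries. The TMM factors, by which library sizes are multiplied, were 1.11 to 1.12 in shTMLHE 1, 1.22 to 1.23 in shTMLHE 2, 0.847 to 0.853 in CCNE1 and 0.860 to 0.864 in control libraries, and their part in the summed level was not tested. Under total counts, which leave these factors out, SIRT6 for shTMLHE 1 against control was at log2 0.15 (edgeR adjusted p = 0.0576), where TMM gave -0.225. The sums were not compared under total counts. The sums are of RNA, and less RNA per cell cannot be told apart from fewer cells that hold it.

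**Figure D1:**
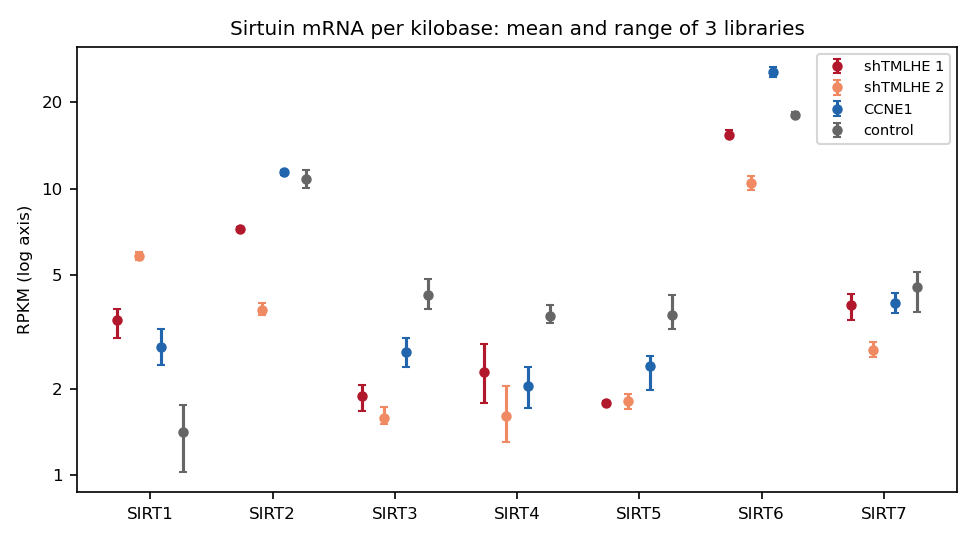
RPKM of each sirtuin on a log axis, by group, with points at the mean and whiskers from the lowest to the highest of 3 libraries. SIRT6 is highest in each group, and SIRT1 ranges from a mean of 5.83 in shTMLHE 2 to 1.42 in control cells.

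Among the nuclear members, SIRT1, which deacetylates FOXO factors and histones, was higher with CCNE1 than in control and highest with shTMLHE 2. It is a gene of chromosome 10 (67884669 to 67918390, plus strand, GENCODE 29 on GRCh38; ENSG00000096717), and no other annotated gene overlaps its exons. SIRT1 had 17.3, 13.7 and 16.5 CPM in the shTMLHE 1 libraries, 26.6, 25.6 and 27.4 CPM in shTMLHE 2, 11.1, 12.7 and 14.7 CPM in CCNE1, and 4.67, 6.66 and 8.03 CPM in control. Each control library was below every other, each shTMLHE 2 library above every other, and shTMLHE 1 overlapped CCNE1.

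The CCNE1 cells had 2.01-fold the SIRT1 mRNA of control cells (log2 fold change 1.005 ± 0.157 SE, adjusted p = 1.68e-06 in edgeR's quasi-likelihood test over all 15378 tested genes), and the log2 value was 0.67 after removal of the trend (adjusted p = 0.000646). With shTMLHE 2 the log2 fold change over CCNE1 was 1.05 ± 0.132 (adjusted p = 4.94e-09). The call ended with the trend removed, at 0.22 (adjusted p = 0.146), and the 2466 tested genes within 2 percentage points of the GC content of SIRT1 had a median of 0.83 in that comparison. With shTMLHE 1 SIRT1 did not pass over CCNE1, at 0.30 ± 0.137 (adjusted p = 0.0579), and with the trend removed it was at -0.07 (adjusted p = 0.688). It passed as a rise under limma-voom (adjusted p = 0.0488), upper quartile scaling (0.0140), total counts (2.81e-05) and without control replicate 1, control replicate 3, CCNE1 replicate 3 or shTMLHE 1 replicate 2 (0.0194 to 0.0449). Against control, SIRT1 was higher with both hairpins, by log2 1.30 ± 0.153 with shTMLHE 1 and 2.05 ± 0.148 with shTMLHE 2 (adjusted p = 1.27e-09 and 1.32e-15), and by 0.60 and 0.89 with the trend removed (adjusted p = 0.000794 and 1.72e-06).

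SIRT6, a histone H3 deacetylase that acts at telomeres and DNA breaks, was higher with CCNE1 than in control and lower with each hairpin than with CCNE1. The gene lies on chromosome 19 (4174109 to 4182604, minus strand; ENSG00000077463) and shares no exon bases with another gene. SIRT6 had 42.3, 42.3 and 44.5 CPM in the shTMLHE 1 libraries, 27.6, 30.8 and 28.7 CPM in shTMLHE 2, 71.0, 73.8 and 68.2 CPM in CCNE1, and 49.4, 49.95 and 51.6 CPM in control. No groups overlapped, and the order was CCNE1, control, shTMLHE 1, shTMLHE 2. The log2 fold change was 0.50 ± 0.067 for CCNE1 against control (adjusted p = 1.01e-07), and 0.585 with the trend removed (adjusted p = 2.62e-09).

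The falls of SIRT6 with the hairpins were -0.72 ± 0.067 for shTMLHE 1 and -1.29 ± 0.068 for shTMLHE 2 against CCNE1 (adjusted p = 3.40e-12 and 1.11e-19). SIRT6 has the highest GC content of the family, and the 902 genes within 2 points of it had medians of -0.45 and -1.31 in the same comparisons. With the trend removed the values were -0.13 and 0.034 (adjusted p = 0.0879 and 0.679), so neither fall held its call and the second changed sign. Against control SIRT6 fell by 0.225 on the log2 scale with shTMLHE 1 and by 0.79 with shTMLHE 2 (adjusted p = 0.00420 and 5.75e-13). The call for shTMLHE 1 ended under upper quartile scaling (-0.148, adjusted p = 0.0565) and total counts (0.148, adjusted p = 0.0576). With the trend removed SIRT6 was instead higher than control, by 0.455 and 0.62 (adjusted p = 2.79e-07 and 4.52e-10).

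SIRT7, a nucleolar deacetylase of histone H3 that supports transcription of ribosomal DNA, was lower with shTMLHE 2 and did not pass with shTMLHE 1 or CCNE1. The gene lies on chromosome 17 (81911939 to 81921323, minus strand; ENSG00000187531), and 1.71% of its exon bases are shared with MAFG on the same strand. SIRT7 had 21.4, 24.4 and 26.5 CPM in the shTMLHE 1 libraries, 15.9, 16.4 and 18 CPM in shTMLHE 2, 26.7, 22.7 and 24.4 CPM in CCNE1, and 29.6, 31.6 and 22.8 CPM in control. The shTMLHE 2 libraries lay below all others, which overlapped.

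The log2 fold change of SIRT7 for shTMLHE 2 against CCNE1 was -0.55 ± 0.111 (adjusted p = 3.45e-05). It was -0.082 with the trend removed (adjusted p = 0.530) and -0.022 under total counts (adjusted p = 0.866). For shTMLHE 1 against CCNE1 it was -0.03, with a 95% interval of -0.25 to 0.20, and for CCNE1 against control -0.19, with an interval of -0.42 to 0.03 (adjusted p = 0.853 and 0.160). Without control replicate 3, the lowest control library, SIRT7 passed for CCNE1 against control (-0.32, adjusted p = 0.0214). Against control SIRT7 was at -0.22 ± 0.110 with shTMLHE 1 (adjusted p = 0.0745), which passed without control replicate 3 or shTMLHE 1 replicate 3 (adjusted p = 0.00655 and 0.0403). It fell by 0.74 against control with shTMLHE 2 (± 0.112, adjusted p = 1.79e-07). This call ended with the trend removed (-0.105, adjusted p = 0.409) and under total counts (-0.236, adjusted p = 0.0535).

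SIRT2, the cytosolic member, deacetylates tubulin and, in mitosis, histone H4, and was lower with both hairpins. The gene lies on chromosome 19 (38878555 to 38899862, minus strand; ENSG00000068903), and 0.643% of its exon bases lie within NFKBIB on the opposite strand. SIRT2 had 44.3, 45.2 and 45.6 CPM in the shTMLHE 1 libraries, 23.0, 24.9 and 22.6 CPM in shTMLHE 2, 71.9, 69.6 and 72.04 CPM in CCNE1, and 67.5, 62.3 and 72.03 CPM in control. All hairpin libraries were below all CCNE1 and control libraries, which overlapped.

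Against CCNE1 the log2 fold change of SIRT2 was -0.66 ± 0.066 with shTMLHE 1 and -1.60 ± 0.070 with shTMLHE 2 (adjusted p = 3.58e-11 and 2.40e-22), so that shTMLHE 2 cells held 0.330 times the SIRT2 mRNA of CCNE1 cells. The falls held their calls with the trend removed, at -0.54 and -0.97 (adjusted p = 2.72e-09 and 1.20e-15). The 1798 genes within 2 points of the GC content of SIRT2 had medians of -0.29 and -0.87. For CCNE1 against control SIRT2 did not pass (0.081 ± 0.066, adjusted p = 0.337), and with the trend removed SIRT2 passed at 0.20 (adjusted p = 0.0116). Against control it fell by 0.58 with shTMLHE 1 and by 1.52 with shTMLHE 2 (adjusted p = 9.81e-10 and 1.51e-21), and by 0.34 and 0.77 with the trend removed.

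**Figure D2:**
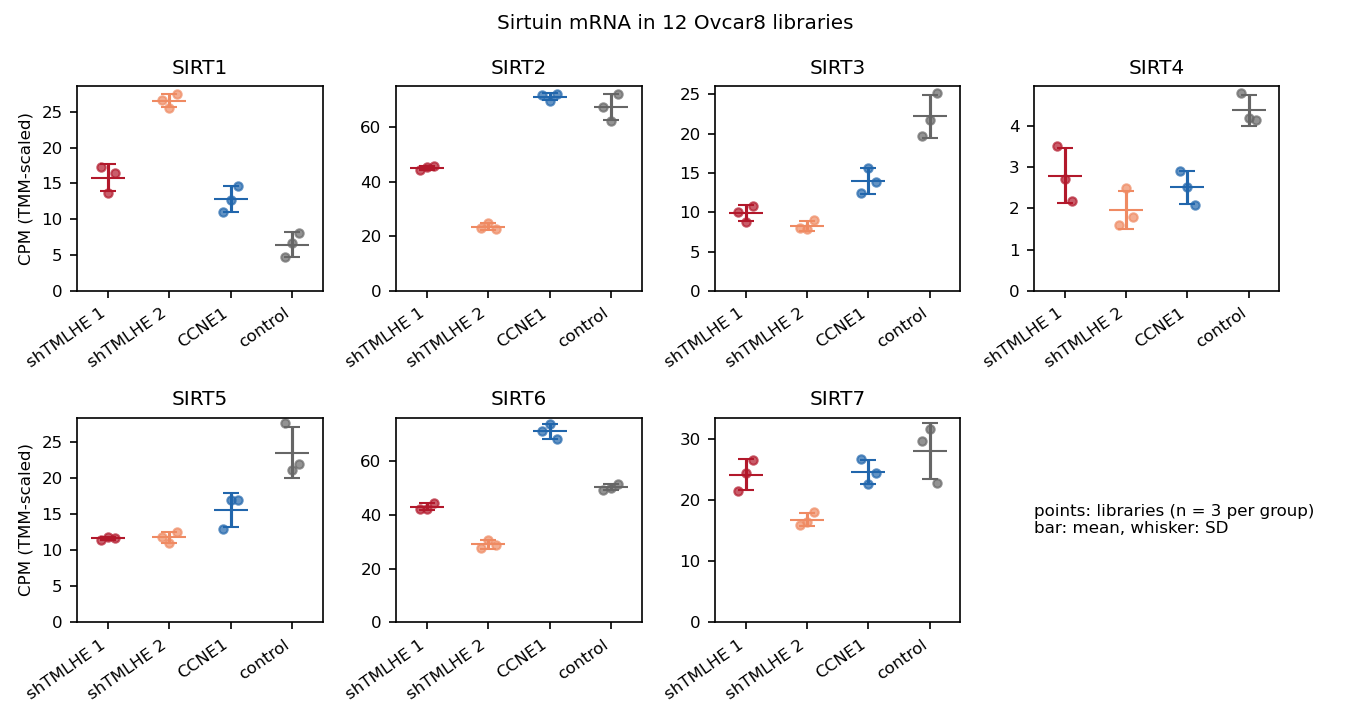
CPM of each sirtuin in each of the 12 libraries, with points for libraries and bars and whiskers for the mean and SD of each group of 3, on axes that start at 0. SIRT2 and SIRT6 libraries with a hairpin lie below all CCNE1 libraries, SIRT1 libraries of shTMLHE 2 lie above all others, and SIRT3, SIRT4 and SIRT5 are highest in control.

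The 3 mitochondrial members were all highest in control cells. SIRT3, the chief deacetylase of the mitochondrial matrix, lies on chromosome 11 (215458 to 236931, minus strand; ENSG00000142082), and 6.07% of its exon bases are shared with PSMD13 on the opposite strand. SIRT3 had 10.0, 8.74 and 10.8 CPM in the shTMLHE 1 libraries, 7.93, 7.87 and 9.03 CPM in shTMLHE 2, 12.4, 15.7 and 13.8 CPM in CCNE1, and 19.7, 21.7 and 25.2 CPM in control. The hairpin groups overlapped each other and lay below CCNE1, and CCNE1 lay below control. The strand setting of the authors' counting is not given in the sources used here, so reads of a sirtuin and of a gene on the other strand cannot be told apart in shared bases.

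With CCNE1, SIRT3 fell by 0.66 on the log2 scale against control (± 0.132, adjusted p = 8.01e-05), and by 0.48 with the trend removed (adjusted p = 0.00375). It was lower again with the hairpins, at -0.51 ± 0.138 for shTMLHE 1 and -0.76 ± 0.138 for shTMLHE 2 against CCNE1 (adjusted p = 0.00153 and 5.81e-06). These calls ended with the trend removed, at -0.25 and -0.034 (adjusted p = 0.129 and 0.844), and under total counts, at -0.12 and -0.235 (adjusted p = 0.463 and 0.122). Against control, SIRT3 was lower with both hairpins as fitted (-1.17 and -1.42, adjusted p = 8.19e-10 and 3.78e-12) and after removal of the trend (-0.73 and -0.515, adjusted p = 1.44e-05 and 0.00106).

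SIRT5, the desuccinylase, was lower with CCNE1 than in control and lower again with each hairpin. The gene lies on chromosome 6 (13574529 to 13615158, plus strand; ENSG00000124523), and 16.1% of its exon bases are shared with an antisense gene, AL441883.1. SIRT5 had 11.5, 11.8 and 11.7 CPM in the shTMLHE 1 libraries, 11.8, 11.1 and 12.5 CPM in shTMLHE 2, 12.9, 16.9 and 17.0 CPM in CCNE1, and 27.6, 21.1 and 21.9 CPM in control. The hairpin groups overlapped each other only, and CCNE1 lay between them and control, with its replicate 1 close to the hairpin libraries.

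For CCNE1 against control the log2 fold change of SIRT5 was -0.59 ± 0.127 (adjusted p = 0.000209). Against CCNE1 it was -0.43 ± 0.131 with shTMLHE 1 and -0.41 ± 0.129 with shTMLHE 2 (adjusted p = 0.00462 and 0.00448). All 3 values held their calls with the trend removed, at -0.58, -0.59 and -0.65 (adjusted p = 0.000259, 0.000163 and 3.30e-05). Under total counts, where the median of all tested genes moved to 0.43 and 0.56, the hairpin values were -0.037 and 0.12 (adjusted p = 0.818 and 0.424). Against control SIRT5 fell by 1.02 with shTMLHE 1 and by 1.00 with shTMLHE 2 (adjusted p = 6.77e-09 and 4.79e-09), and by 1.18 and 1.23 with the trend removed. Between the hairpins SIRT5 differed by -0.02 with a 95% interval of -0.28 to 0.25.

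SIRT4, a mitochondrial ADP-ribosyltransferase and lipoamidase that restrains glutamate dehydrogenase, had the fewest counts, 32 to 69 per library. The gene lies on chromosome 12 (120302316 to 120313249, plus strand; ENSG00000089163). SIRT4 had 3.51, 2.71 and 2.18 CPM in the shTMLHE 1 libraries, 1.60, 2.50 and 1.80 CPM in shTMLHE 2, 2.91, 2.53 and 2.09 CPM in CCNE1, and 4.81, 4.20 and 4.14 CPM in control. Every control library was above the rest, and the other 3 groups overlapped.

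Against control SIRT4 fell by 0.81 on the log2 scale with CCNE1 (± 0.286, adjusted p = 0.0198), and the call ended with the trend removed (-0.67, adjusted p = 0.0655), when control replicate 1 (adjusted p = 0.0657) or CCNE1 replicate 3 (adjusted p = 0.0643) was left out. With shTMLHE 2 it fell by 1.16 against control (± 0.285, adjusted p = 0.000384), and by 0.65 with the trend removed (adjusted p = 0.0421). With shTMLHE 1 the value against control was -0.645 ± 0.280 (adjusted p = 0.0398), and its call ended in 5 of the fits that left out a library (control replicate 1, 2 or 3, shTMLHE 1 replicate 2 or 3, adjusted p = 0.0501 to 0.163) and with the trend removed (-0.25, adjusted p = 0.458). That call also ended under DESeq2 (adjusted p = 0.0548), upper quartile scaling (0.0698), total counts (0.393) and with no filter on low counts (0.103). Between the hairpin groups and CCNE1 no difference in SIRT4 was detectable at this depth, with 95% intervals of -0.42 to 0.75 for shTMLHE 1 and -0.94 to 0.24 for shTMLHE 2.

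**Figure D3:**
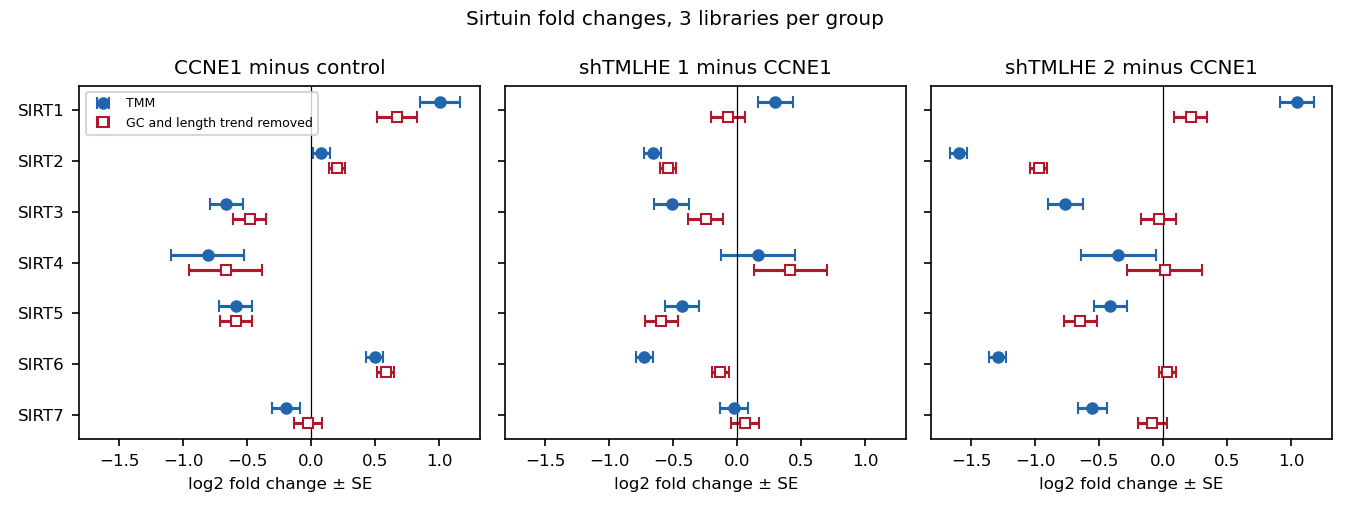
Log2 fold changes with SE of the 7 sirtuins in 3 comparisons, as fitted with TMM (filled circles) and once the trend on GC and length was removed (open squares). SIRT2, SIRT3 and SIRT5 stay below 0 for both hairpins, and of these SIRT2 and SIRT5 keep their calls with the trend removed. SIRT6 for shTMLHE 2 lies at -1.29 as fitted and at 0.034 with the trend removed.

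Counted over the family, 2 sirtuins rose (SIRT1, SIRT6) and 3 fell (SIRT3, SIRT4, SIRT5) with CCNE1 against control, where 44.2% of all tested genes were called, 25.1% higher and 19.1% lower. Their median log2 fold change was -0.19, against 0.05 over all tested genes. With shTMLHE 1 against CCNE1, none rose and 4 fell (SIRT2, SIRT3, SIRT5, SIRT6), with 60.7% of all genes called, 30.4% higher and 30.3% lower, and medians of -0.43 for the family and 0.03 for all genes. With shTMLHE 2 against CCNE1, 1 rose (SIRT1) and 5 fell (SIRT2, SIRT3, SIRT5, SIRT6, SIRT7), with 73.0% of all genes called, 36.8% higher and 36.2% lower, and medians of -0.55 and 0.03. The shares called were high over all genes, so a called sirtuin is no rarity in these comparisons.

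With the trend removed, 3 sirtuins rose and 2 fell with CCNE1, among 36.6% of genes called, 20.2% higher and 16.4% lower. With either hairpin against CCNE1 none then rose, and SIRT2 and SIRT5 fell. Of all genes 55.6% were called for shTMLHE 1, 23.7% higher and 31.9% lower, and 62.6% for shTMLHE 2, 27.5% higher and 35.1% lower. Family medians were then -0.13 for shTMLHE 1 and -0.034 for shTMLHE 2 against CCNE1, and -0.023 for CCNE1 against control. All comparisons against CCNE1 share its 3 libraries, and all against control share those 3. Against control, 1 sirtuin rose and 5 fell with shTMLHE 1, where 68.7% of genes were called, 35.3% higher and 33.4% lower, and 1 rose and 6 fell with shTMLHE 2, where 78.1% were called, 39.0% higher and 39.1% lower. Once the trend was removed, 2 rose and 3 fell with shTMLHE 1 (60.9% called, 27.4% higher and 33.5% lower), and 2 rose and 4 fell with shTMLHE 2 (66.8% called, 30.8% higher and 36.0% lower).

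**Figure D4:**
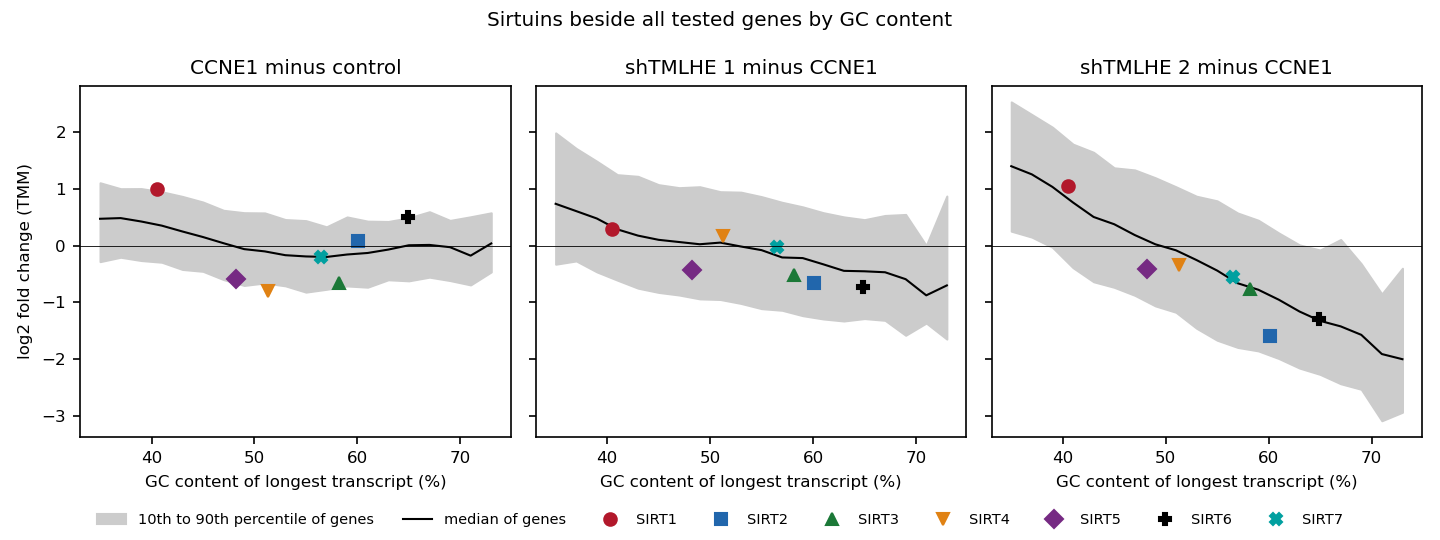
Log2 fold change as fitted with TMM against GC content of the longest transcript, with a black line for the median of tested genes in bins of 2 percentage points, grey for their 10th to 90th percentile and symbols for the sirtuins. For the hairpins the line falls with GC content, most for shTMLHE 2, where SIRT6 lies on it at -1.29 and SIRT2 below it at -1.60. For CCNE1 against control it falls to -0.20 at 56% to 58% GC and is back at 0.006 at 64% to 66%.

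The hairpins differed from each other in 4 of the 7 sirtuins, where 60.3% of genes were called, 31.3% higher and 29.0% lower with shTMLHE 1. SIRT2, SIRT6 and SIRT7 were higher with shTMLHE 1 than with shTMLHE 2, by log2 0.94 ± 0.071, 0.57 ± 0.070 and 0.52 ± 0.111 (adjusted p = 1.43e-14, 4.20e-09 and 8.46e-05). SIRT1 was lower, at -0.75 ± 0.128 (adjusted p = 3.39e-06). With the trend removed, which left 48.2% of genes called (25.0% higher, 23.1% lower), SIRT2 held its direction and call at 0.43 (adjusted p = 1.48e-06), SIRT6 turned to -0.16 (adjusted p = 0.0456), and SIRT7 and SIRT1 no longer passed, at 0.15 and -0.29 (adjusted p = 0.285 and 0.0585).

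The genes whose pattern over the 12 libraries was most like that of each sirtuin were found among 11739 genes by the root mean square difference of centred log2 CPM, and the group means of these genes follow. For SIRT1 they were MCM8, a helicase gene, at 0.150, and XK, at 0.165, against a median of 0.838 over all genes compared. MCM8 averaged 22.3 CPM in shTMLHE 1, 38.9 in shTMLHE 2, 15.8 in CCNE1 and 9.07 in control cells. For SIRT2 they were MAPK12, a p38 kinase gene, at 0.0662, and INF2, a formin gene, at 0.0695. For SIRT6 they were TK1, the thymidine kinase of S phase, at 0.0685, and MELTF at 0.0772. TK1 averaged 605 CPM in shTMLHE 1, 391 in shTMLHE 2, 982 in CCNE1 and 748 in control cells. SIRT3 was closest to LZTS3 (0.120) and to ACADVL (0.127), the very long chain acyl-CoA dehydrogenase. ACADVL, whose protein is a known SIRT3 substrate, averaged 146 CPM in shTMLHE 1, 111 in shTMLHE 2, 220 in CCNE1 and 323 in control cells. The closest were NKX3-2 and PLXNB3 for SIRT4 (0.177 and 0.194), UQCC1 and RAE1 for SIRT5 (0.128 and 0.132), and HDGFL2 and C1orf123 for SIRT7 (0.103 and 0.104). Medians over all genes compared were 0.521 to 0.701 for the members other than SIRT1. The GC and length trend was left in for this search, and its part in the likeness was not tested.

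The lists of genes around the sirtuins are described by counts under TMM. Each count is to be read beside the shares over all tested genes. As fitted, 30.4% of genes were called higher and 30.3% lower with shTMLHE 1 against CCNE1, and 36.8% and 36.2% with shTMLHE 2. For CCNE1 against control the shares were 25.1% and 19.1%. Removal of the trend gave 23.7% and 31.9%, 27.5% and 35.1%, and 20.2% and 16.4% in the same order. Medians over all genes were 0.03, 0.03 and 0.05 as fitted. No list was tested against these values. Scaling by total counts raises all values for a hairpin against CCNE1 by about the same amount, and small falls turn positive on it. The list on NAD, the cosubstrate of sirtuins, covers its synthesis and salvage but also NAD kinases, transporters and other genes. Counts over it do not measure NAD supply, and 16 of its 25 genes were tested. Of these 3 rose and 9 fell with shTMLHE 1 against CCNE1 (median -0.255), 3 rose and 12 fell with shTMLHE 2 (median -0.47), and 5 rose and 4 fell with CCNE1 against control (median 0.09). NAPRT, which starts NAD synthesis from nicotinic acid, averaged 107 CPM in shTMLHE 1, 48.2 in shTMLHE 2, 225 in CCNE1 and 117 in control cells. Its log2 fold changes were -1.07 and -2.22 for the hairpins and 0.95 for CCNE1 (adjusted p = 2.21e-20, 2.89e-30 and 1.56e-17), and with the trend removed -0.51, -0.775 and 0.97, all called. QPRT, which feeds quinolinate into the pathway, fell by 0.76 and 1.07 with the hairpins, and by 0.49 and 0.37 with the trend removed. SLC29A4, a membrane transporter, fell by 1.545 and 2.33, and by 1.49 and 1.77 with the trend removed.

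NADK, the kinase that makes NADP, changed by -0.15 and -1.21 with the hairpins (adjusted p = 0.0444 and 1.55e-18), and by -0.084 and -0.77 with the trend removed (adjusted p = 0.279 and 1.24e-12). The 3 that rose with each hairpin were NAMPT, the rate-limiting enzyme of salvage from nicotinamide, NMNAT2, which joins the adenylate, and NADK2, the mitochondrial NAD kinase. With CCNE1 against control NMNAT2, NAPRT, NNT, NNMT and SLC29A4 rose and QPRT, AFMID, SLC12A8 and PNP fell. NAMPT averaged 15.7 CPM in shTMLHE 1, 21.7 in shTMLHE 2, 8.17 in CCNE1 and 6.63 in control cells. Its rises of 0.94 and 1.41 over CCNE1 (adjusted p = 2.63e-07 and 7.87e-12) lost their calls with the trend removed, at 0.265 and 0.15 (adjusted p = 0.113 and 0.356), as did those of NADK2, at 0.27 and -0.039 (adjusted p = 0.258 and 0.875). With the trend removed 1 gene of the list rose (NMNAT2) and 7 fell with shTMLHE 1, and 2 rose (NMNAT2, SLC25A51) and 11 fell with shTMLHE 2.

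Other enzymes that consume NAD moved in both directions. Of 23 listed 16 were tested, with 4 higher and 5 lower for shTMLHE 1 (median -0.007), 8 higher and 3 lower for shTMLHE 2 (median 0.215), and 4 higher and 4 lower for CCNE1 (median -0.004). The median for shTMLHE 2 turned to -0.20 with the trend removed, with 3 higher (PARP12, TNKS2, BST1) and 6 lower. TNKS2, a tankyrase, rose in each comparison, by 0.96 with shTMLHE 1, 1.16 with shTMLHE 2 and 0.97 with CCNE1, and PARP12 by 0.84, 0.73 and 0.215. With shTMLHE 1 the others that rose were PARP6 and TNKS, and PARP1, the main sensor of DNA breaks, PARP2, PARP10, PARP16 and SARM1 fell. With shTMLHE 2 PARP3, PARP10 and PARP16 fell. With CCNE1 against control PARP4 and PARP9 also rose, and PARP3, PARP6, PARP16 and TNKS fell. PARP10 fell by 0.32 and 1.57 with the hairpins, and PARP3 changed by 0.11 (adjusted p = 0.214) with shTMLHE 1 and by -0.72 with shTMLHE 2. After removal of the trend PARP10 was at 0.016 (adjusted p = 0.883) with shTMLHE 1 and fell by 0.40 with shTMLHE 2, and PARP3 rose by 0.35 with shTMLHE 1 and was at -0.058 (adjusted p = 0.536) with shTMLHE 2. TNKS2 rose by 0.55, 0.38 and 0.70 with the trend removed, and PARP12 by 0.81, 0.98 and 0.38.

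The zinc-dependent deacetylases remove the same acetyl marks without NAD. All 11 were tested, with 1 higher and 6 lower for shTMLHE 1 (median -0.14), 2 higher and 7 lower for shTMLHE 2 (median -0.58), and 3 higher and 4 lower for CCNE1 against control (median 0.04). HDAC5 fell by 0.72 and 2.20 with the hairpins, and by 0.62 and 1.535 with the trend removed. HDAC6, which shares tubulin as a substrate with SIRT2, fell by 0.555 and 0.58. HDAC2 was -0.14 with shTMLHE 1 and 0.38 with shTMLHE 2 against CCNE1 (adjusted p = 0.0298 and 4.55e-08), and fell by 0.95 and 0.96 with the trend removed. HDAC7, the member that rose with shTMLHE 1, changed by 0.13 and -0.72. After removal of the trend HDAC7 was at 0.055 (adjusted p = 0.358) and -0.38. HDAC9 was the other that rose with shTMLHE 2, by 1.09, and was at -0.053 with the trend removed (adjusted p = 0.856). None of the list was then higher and 9 were lower with shTMLHE 2. With CCNE1 against control HDAC1, HDAC2 and HDAC8 rose, and HDAC5, HDAC6, HDAC7 and HDAC9 fell.

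**Figure D5:**
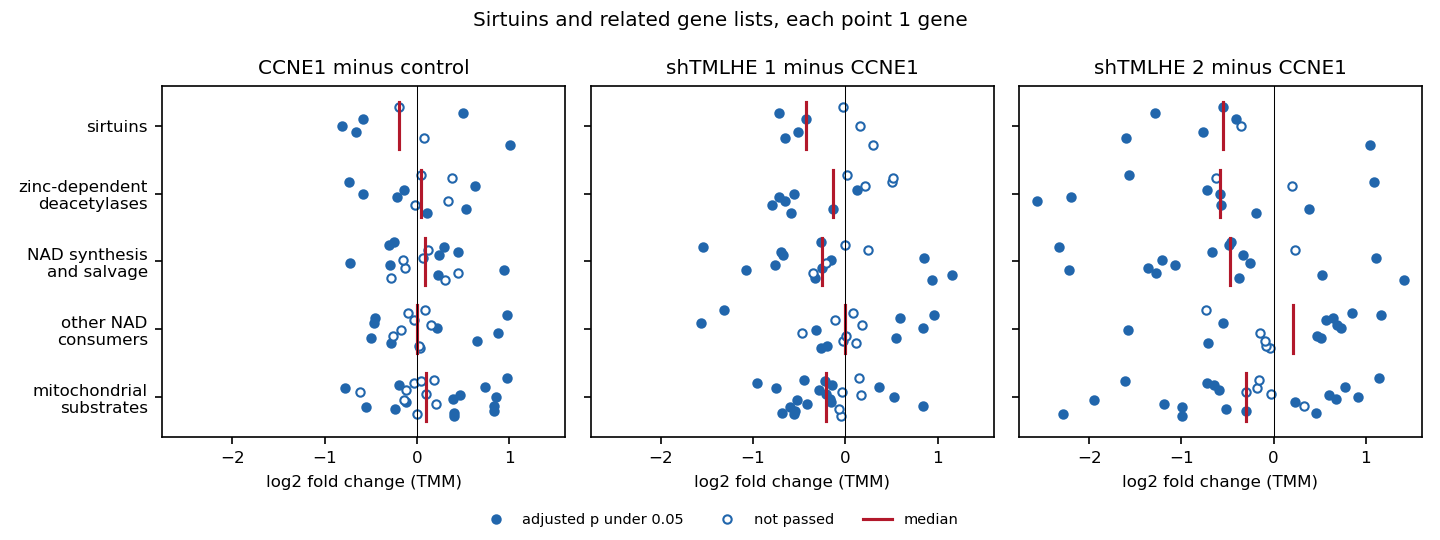
Log2 fold changes (TMM) of the tested members of 5 gene lists in 3 comparisons, with filled points at an adjusted p under 0.05 and red bars at the list medians. The sirtuin median lies at -0.43 for shTMLHE 1 and -0.55 for shTMLHE 2, and points of each list lie on both sides of 0 for shTMLHE 2.

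Known regulators of sirtuins numbered 17 tested of 18, with 6 higher and 9 lower for shTMLHE 1 (median -0.09), 5 higher and 11 lower for shTMLHE 2 (median -0.41), and 5 higher and 5 lower for CCNE1 (median 0.08). E2F1, which activates the SIRT1 promoter, fell by 1.05 and 1.93 with the hairpins and rose by 0.325 with CCNE1, and these calls held with the trend removed (-0.64, -0.87 and 0.455). CCAR2, an inhibitor that binds SIRT1, fell by 0.185 and 0.95 with the hairpins, and by 0.15 and 0.485 with the trend removed. ESRRA, a nuclear receptor that activates SIRT3, fell by 1.15 and 1.37, and by 0.69 and 0.23 with the trend removed. PRMT1, an arginine methyltransferase, fell by 0.88 and 1.14, and by 0.52 and 0.40 with the trend removed. Those that rose with shTMLHE 2 were PPARGC1B, FOXO3, NAMPT, SENP1 and DYRK1A. Of these FOXO3 was still called higher with the trend removed (0.50), PPARGC1B, NAMPT and SENP1 lost their calls (adjusted p = 0.554, 0.356 and 0.369), and DYRK1A fell by 0.40 (adjusted p = 0.000354). The counts of the list were then 2 higher (HIC1, CTBP1) and 10 lower with shTMLHE 1, and 2 higher (CTBP1, FOXO3) and 9 lower with shTMLHE 2. With CCNE1 against control CTBP2, E2F1, SENP1, DYRK1A and PRMT1 rose, and CCAR2, CTBP1, USP22, ESRRA and MYC fell.

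Known nuclear and cytosolic substrates numbered 27 tested of 29, with 9 higher and 13 lower for shTMLHE 1 (median -0.008), 11 higher and 14 lower for shTMLHE 2 (median -0.25), and 8 higher and 8 lower for CCNE1 (median 0.05). TUBA1A, an alpha-tubulin, fell by 1.10 and 0.78 with the hairpins, and APEX1, a base excision nuclease, by 1.16 and 1.30. Without the trend the log2 changes were -0.96 and -0.47 for TUBA1A and -1.01 and -1.07 for APEX1, with 6 of the list higher and 15 lower for shTMLHE 1, and 7 higher and 14 lower for shTMLHE 2. HIF1A rose by 0.54 and 1.51, and with the trend removed it was -0.08 (adjusted p = 0.261) and 0.31 (adjusted p = 1.92e-05).

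Known mitochondrial substrates numbered 23 tested of 26, with 3 higher and 15 lower for shTMLHE 1 (median -0.21), 7 higher and 11 lower for shTMLHE 2 (median -0.30), and 9 higher and 5 lower for CCNE1 (median 0.10). IDH2, a SIRT3 substrate that makes alpha-ketoglutarate, fell by 0.55 and 2.29 with the hairpins, and by 0.40 and 1.76 with the trend removed. SHMT2, a folate enzyme, fell by 0.22 and 1.61, with log2 changes of -0.11 and -1.105 after removal of the trend. ACADVL fell by 0.60 and 0.99, and by 0.27 and 0.17 with the trend removed. LRPPRC rose by 0.37 and 0.77, and its calls ended with the trend removed (-0.054 and -0.033, adjusted p = 0.369 and 0.566). CPS1 and DLD were the others that rose with shTMLHE 1, and DLD lost its call with the trend removed (adjusted p = 0.358). The counts of the list were then 2 higher (CPS1, ECHS1) and 15 lower with shTMLHE 1, and 3 higher (PPIF, PDHX, ECHS1) and 14 lower with shTMLHE 2. With CCNE1 against control SDHA, ACADVL, PPIF, ALDH2 and ECHS1 fell.

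The enzymes and carriers listed around acyl-CoA, the donors of the groups that sirtuins remove, include some that make it and some that use it. All were tested, 21 of 21. The hairpins gave 3 higher and 12 lower for shTMLHE 1 (median -0.18) and 4 higher and 11 lower for shTMLHE 2 (median -0.32). For CCNE1 8 were higher and 7 lower (median 0.02). SLC25A1, the mitochondrial citrate carrier, fell by 1.64 and 2.27 with the hairpins, and by 1.04 and 0.905 with the trend removed. CRAT, the carnitine acetyltransferase, fell by 0.89 and 2.26, and by 0.52 and 1.25 with the trend removed. SUCLG1, a subunit of the enzyme that uses succinyl-CoA, fell by 0.70 and 1.06, and by 0.77 and 1.59 with the trend removed. Those that rose were ACSS3, DLD and SUCLA2 with shTMLHE 1, and ACLY, DLAT, DLD and SUCLA2 with shTMLHE 2. SUCLA2 with both hairpins and ACLY with shTMLHE 2 held their calls with the trend removed, while ACSS3 and DLD with shTMLHE 1 (adjusted p = 0.518 and 0.358) and DLAT and DLD with shTMLHE 2 (adjusted p = 0.205 and 0.929) did not. The counts were then 1 higher and 14 lower with shTMLHE 1, and 2 higher and 13 lower with shTMLHE 2.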

How the data were processed

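RNA was sequenced from 12 Ovcar8 libraries, placed in 4 groups of 3 by their labels. The authors deposited raw counts per gene, made with STAR 2.6.1 on GRCh38 per the submitters' processing notes, which also name DESeq2. Which program counted reads, and with which strand setting, is not given in the sources used here. FPKM deposited by the authors are scaled per kilobase and per M counts and were used in alternatives only. Gene lengths equalled GENCODE 29 exon lengths for 100% of genes.

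Counts were tested with edgeR 4.0.16 in R 4.3.3 (TMM, filterByExpr by group, which kept 15378 genes, robust quasi-likelihood fit over all 12 libraries, 8 residual degrees of freedom). P-values were adjusted by Benjamini-Hochberg over all tested genes, and a gene was called at an adjusted p under 0.05. The GC and length trend was a natural spline per library, entered as an offset, with GC content known for 99.97% of tested genes. The alternatives were RLE, upper quartile and total count scaling, other filters, DESeq2 1.42.0, limma-voom and limma-trend (limma 3.58.1) on log2(FPKM + 0.1) and log2(FPKM + 1), fits with only the groups compared, a block for the replicate number, leaving out each library and a threshold of 0.01. The fit was tested on simulated counts. No libraries of the same group were identical beyond sampling noise, with a chi-square over its degrees of freedom of 2.09 to 5.63. Libraries of different groups were not compared in this way.

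Members, lists and the rule on named genes were chosen with earlier results of these data known. The rule took the 7 sirtuins, at most 4 members per list with the smallest p and those behind counts of 5 or fewer, the 2 genes most like each sirtuin, CCNE1 and TMLHE. Lists covered zinc-dependent deacetylases, NAD synthesis and salvage, other NAD-consuming enzymes, regulators, nuclear and cytosolic substrates, mitochondrial substrates, acyl-CoA supply, and markers of ovarian serous cells, leukocytes, endothelium and fibroblasts. SOD2 carries 2 identifiers in the table, and the first listed, which is also the better counted, was used. Some genes that the rule names are not reported here.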

Additional observations from a re-analysis of the deposited data

Results flagged for a closer look

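The changes with both hairpins over the same CCNE1 libraries were compared directly, and the difference passed the test for 4 sirtuins, of which the values are given here as log2 (shTMLHE 1 minus shTMLHE 2) from edgeR's quasi-likelihood test. SIRT1 differed by -0.748 (adjusted p = 3.39e-06), with all 3 shTMLHE 1 libraries below all 3 shTMLHE 2 libraries. SIRT2 differed by 0.939 (adjusted p = 1.43e-14), with no overlap in the other direction. SIRT6 differed by 0.567 (adjusted p = 4.20e-09), a value whose sign turned with the GC and length trend removed. SIRT7 differed by 0.524 (adjusted p = 8.46e-05). With the trend removed SIRT1 and SIRT7 lost their calls (-0.286 and 0.146, adjusted p = 0.0585 and 0.285), and SIRT2 kept its call (0.432, adjusted p = 1.48e-06). Of all tested genes 60.3% differed between the hairpins as fitted, and 48.2% with the trend removed.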

How the results depend on the processing

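Over 26 alternatives, 1009 of 1092 values of the 7 sirtuins in 6 comparisons kept direction and side of the threshold, 39 lost their call, 14 gained one and 30 changed sign. The replicate block changed no call (SIRT6, shTMLHE 2 minus CCNE1, -1.29 as without it). The correlation of deviations was -0.0465 to 0.0263 over 18 same-number pairs, so no effect shared by replicate number was visible over the genes. These values cannot tell whether libraries of the same number were handled together. With the GC and length trend removed, values that changed sign were, for shTMLHE 1 minus CCNE1, SIRT1 -0.07 and SIRT7 0.063; for shTMLHE 2 minus CCNE1, SIRT4 0.013 and SIRT6 0.034; for shTMLHE 1 minus shTMLHE 2, SIRT3 -0.21, SIRT5 0.054 and SIRT6 -0.16; for shTMLHE 1 minus control, SIRT6 0.455 and SIRT7 0.04; and for shTMLHE 2 minus control, SIRT6 0.62. The replicate block with that trend removed gave -0.062, 0.063, 0.014, 0.034, -0.21, 0.054, -0.16, 0.455, 0.041 and 0.62. Sirtuins called were then 2 for each hairpin minus CCNE1 (of 4 and 6) and 2 between the hairpins (of 4), or 1 with the block. Without the block, 55.6% and 62.6% of all tested genes were called for the hairpins minus CCNE1 and 48.2% between them. Total counts moved the median of all genes to 0.43 and 0.56 for the hairpins minus CCNE1, with 75.9% and 70.7% of calls higher (4673 of 9338 and 5653 of 11224 with TMM), called 3 sirtuins for shTMLHE 2 minus CCNE1, and turned SIRT7 to 0.37 for shTMLHE 1 minus CCNE1, SIRT4 to 0.18 and SIRT5 to 0.12 for shTMLHE 2 minus CCNE1, and SIRT6 to 0.15 and SIRT7 to 0.15 for shTMLHE 1 minus control. Upper quartile scaling turned SIRT7 to 0.059 for shTMLHE 1 minus CCNE1. Leaving out 1 library each, sirtuins called ranged from 4 to 6 for CCNE1 minus control, 4 to 5 and 6 to 6 for the hairpins minus CCNE1, 4 to 4 between them, and 5 to 6 and 7 to 7 for the hairpins minus control. Over all genes, 6168 to 6778 were called for CCNE1 minus control in these fits. For the hairpins minus CCNE1 the ranges were 8629 to 9447 and 10661 to 11371, and between them 8437 to 9552. For the hairpins minus control they were 9965 to 10833 and 11574 to 12278. For shTMLHE 1 minus CCNE1, SIRT4 ranged from -0.032 to 0.31 and SIRT7 from -0.10 to 0.052, and SIRT5 between the hairpins from -0.063 to 0.022. Where a sign or call changed, the cause was not tested. SIRT4, with 32 to 69 counts per library, is limited by depth.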

Other observations

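The genes with starts next to those of sirtuins were looked at after their values were seen. PSMD13, a proteasome subunit gene on the opposite strand to SIRT3, has its annotated start 45 bases from that of SIRT3. It averaged 170 CPM in shTMLHE 1, 160 in shTMLHE 2 and 240 in CCNE1 cells, with log2 fold changes over CCNE1 of -0.50 and -0.59 (edgeR adjusted p = 2.34e-13 and 9.63e-16) that kept their calls after the trend on GC and length was removed (-0.41 and -0.50). For CCNE1 against control PSMD13 was at 0.09 (adjusted p = 0.0725), and SIRT3 at -0.66. After the removal PSMD13 was called higher, at 0.163 (adjusted p = 0.00126), and SIRT3 lower, at -0.481 (adjusted p = 0.00375). NFKBIB, whose start is 48 bases from that of SIRT2, changed by -0.53 and -0.45 with the hairpins (adjusted p = 0.000106 and 0.000441). After that removal NFKBIB lost its call with shTMLHE 1 (-0.12, adjusted p = 0.390) and was called higher with shTMLHE 2 (0.51, adjusted p = 0.000147).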
